A study of Drosophila melanogaster with 6 samples.

Results

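The odorant receptor genes of Drosophila melanogaster were followed in heads of 5-day-old adult males on 6 Affymetrix arrays. The genes were those whose probe set carried a single symbol made of Or, digits and a letter, together with Orco, and Or45b was left out. This gave 56 genes out of 11982 genes with a single-symbol probe set. They had 62 probe sets of the 18769 tested, and the probe set with the highest mean over the 6 arrays stood for each gene. Mutant flies were homozygous for a dme-miR-14 mutation, rescue flies were such mutants in which the microRNA was put back in the IPCs, the insulin-producing cells of the brain, and control flies were wild-type. Each group had 2 arrays, called biological replicates in the titles. The sources used here do not give the allele, the driver of the rescue transgene, the number of heads per sample or the line that served as control. The study asked which genes were raised in the mutant and were lowered again in the rescue.

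Odorant receptors are membrane proteins of olfactory sensory neurons. A neuron typically makes 1 odour-specific receptor, which assembles with the shared co-receptor Orco into an odour-gated cation channel. In adults these neurons sit in hair-like sensilla of the antennae and the maxillary palps, both of which are appendages of the head. Basiconic sensilla mostly detect food odours and trichoid sensilla mostly detect fly odours and pheromones. Another set of receptors is known from the dorsal organ of the larva. Heads were shaken off frozen flies by vortexing. The sources used here do not say whether antennae and palps stayed attached.

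Most receptor genes read near the bottom of the array scale. An intensity here is the brightness of a probe set on a linear scale after RMA, the authors' background correction, normalization between arrays and summary of probes. The mean intensity over the 6 arrays ran from 9.35 for Or85a to 111 for Or63a, with a median of 20.6 over the 56 genes and of 61.7 over all tested probe sets. The dim level of an array was set as the highest of 20 control probe sets for transcripts that flies lack. It was 35.4 and 39.3 on the mutant arrays, 33.6 and 31.7 on the rescue arrays, and 39.8 and 35.9 on the control arrays. Only 7 of the 56 genes lay above it on all 6 arrays, against 56.3% of all tested probe sets. Another 12 were above it on some arrays and 37 on none.

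The 7 genes above the dim level throughout were Or63a, Orco, Or43b, Or35a, Or59b, Or94a and Or85e. Or85e was the last one inside, at 40.1 against a dim level of 39.3 on mutant replicate 2. Or65b was just outside, at 39.7 against 39.8 on control replicate 1. The count above the dim level was 13 and 9 on the mutant arrays, 15 and 16 on the rescue arrays, and 10 and 17 on the control arrays. Against the median of the same control probe sets, 12.9 to 13.7, 40 genes were above on all arrays. Against genes of the ovary and the larval salivary gland, which male heads are not known to use, none was: the brightest of their 15 probe sets read from 77.6 to 104 on the arrays, and 6 of the 15 lay above the dim level on all arrays. By that measure Or63a was above on 4 arrays and Orco on 1, and no other receptor gene on any.

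**Figure D1:**
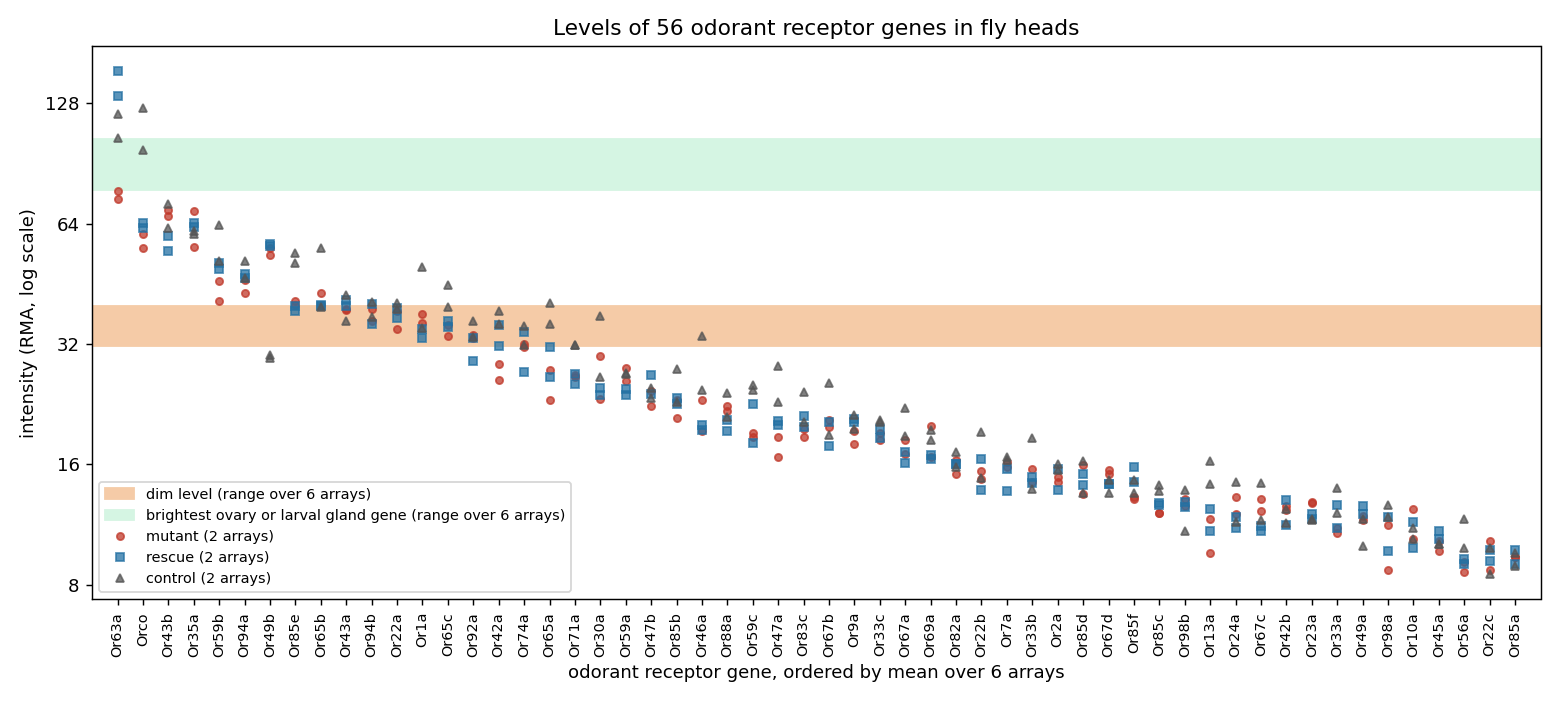
Intensity (RMA, log scale) of the 56 odorant receptor genes on the 6 arrays, ordered by their mean, with mutant arrays as red circles, rescue arrays as blue squares and control arrays as grey triangles. The orange band is the range of the dim level (31.7 to 39.8) and the green band that of the brightest ovary or larval gland gene (77.6 to 104); 37 genes do not rise above the dim level of their array anywhere.

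The order of the genes along this scale is an order of probe set signals, not of transcript numbers, because probe sets bind with different strength. It did not follow the fame of the receptors. Or67d, the receptor for the male pheromone cis-vaccenyl acetate, read 15.5 and 15.1 in mutant, 14.3 and 14.3 in rescue, and 13.6 and 14.6 in control heads. Or42b, a receptor for fruit esters and vinegar, read 12.3 and 12.6 in mutant, 13.0 and 11.3 in rescue, and 11.4 and 12.4 in control heads. Or56a, the receptor for the mould odour geosmin, read from 8.6 to 9.1 in mutant, 9.0 to 9.3 in rescue, and 9.9 to 11.7 in control heads. All of these values lay under the dim level, so no level of these transcripts can be stated from them.

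Neurons, eyes and glia were well represented in the same samples. The measured neuronal (4), photoreceptor (3) and glial (3) marker genes all lay above the dim level on every array. Their summed intensity was 1974 and 2061 in mutant, 2052 and 2182 in rescue, and 2144 and 1714 in control heads for neurons, and 35340 and 35542, 32958 and 33794, and 37455 and 37594 for photoreceptors in the same order of groups. The summed fat body markers (5 genes, 3 of them above the dim level) were 8264 and 7599 in mutant, 12178 and 12561 in rescue, and 13209 and 13275 in control heads, nearly all of it Lsp2, a storage protein gene. The neuronal sum was led by nSyb. Between rescue and control nSyb had a difference of 0.48, and elav, brp and para had -0.42, -0.43 and -0.34, none of them passing. The photoreceptor gene trp was lower in rescue than in control (-0.52, limma adjusted p = 0.00905). The glial gene nrv2 was higher than in control in mutant (0.65, adjusted p = 0.0166) and in rescue (0.68, adjusted p = 0.0138). The part of the marker differences in the receptor differences was not tested. In bulk heads, fewer cells of a type and less RNA per cell cannot be told apart.

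Between mutant and control heads, 7 receptor genes fell and 1 rose (limma, adjusted p under 0.05 over all 18769 probe sets). The genes that fell were the co-receptor Orco, the larval receptor Or63a, the palp receptors Or85e and Or42a, and the antennal receptors Or65a, Or47a and Or13a. The gene that rose was the antennal receptor Or49b. Of all tested probe sets, 10.8% passed, 3.88% downward and 6.88% upward. Of the receptor genes, 12.5% passed downward and 1.79% upward. Among the 11172 probe sets no brighter than the brightest receptor gene, a comparison added with the data in view, 5.67% passed, 3.1% downward and 2.58% upward.

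Orco (probe set 1636134_at) read 55.5 and 60.2 in mutant heads, 64.1 and 62.3 in rescue heads, and 124.8 and 97.8 in control heads. The mutant and rescue arrays all lay below both control arrays. The difference between mutant and control was -0.93 ± 0.12 on the log2 scale (standard error, SE), a level 1.91-fold lower in mutant (adjusted p = 0.00495). It passed in 15 of 16 alternative fits, and without mutant replicate 1 it was -0.88 (adjusted p = 0.057). Orco protein is needed to carry odour-specific receptors to the ciliary membrane and to form the channel with them.

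Or63a (1636616_at), a receptor reported from larval olfactory neurons, was the brightest of the receptor probe sets. It read 77.0 and 73.8 in mutant heads, against 104.5 and 120.4 in control heads, with no overlap. The difference was -0.57 ± 0.11 (adjusted p = 0.0181), and the call was lost when mutant replicate 1 was left out (adjusted p = 0.101) and when mutant replicate 2 was (adjusted p = 0.131). The nearest protein-coding gene on one side, CPT2, which encodes a mitochondrial carnitine transferase, rose by 0.65 (adjusted p = 0.00325). The gene on the other side, CG34025, had a difference of -0.24 that did not pass (adjusted p = 0.296).

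Or49b (1625403_at), a receptor of antennal basiconic sensilla that responds to phenolic odours, read 55.5 and 53.4 in mutant heads, 56.8 and 56.2 in rescue heads, and 29.5 and 30.1 in control heads. Its difference between mutant and control was 0.87 ± 0.074 (adjusted p = 0.000843), and it passed in all 16 alternative fits. Both control arrays lay under the dim level, so that against the dim level the mutant was at least 1.44-fold higher. The next gene on one side in the assembly Release 6, the cytochrome P450 gene Cyp9h1, rose by 1.95 (adjusted p = 2.24e-04), while the gene on the other side, CG17575, had a difference of 0.02 (adjusted p = 0.901). The part of Cyp9h1 transcripts in the Or49b signal was not tested.

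Both palp receptors that passed were lower in the mutant. Or85e (1632564_at), which responds to the terpene fenchone, read 41.1 and 40.1 in mutant and 50.9 and 54.0 in control heads, a difference of -0.37 ± 0.077 (adjusted p = 0.0265). Or42a (1636690_at), a receptor for fruit esters in palps and larvae, read 28.6 and 26.0 in mutant and 35.9 and 38.8 in control heads, a difference of -0.45 ± 0.098 (adjusted p = 0.0299). Its mutant arrays and control replicate 1 were under the dim level, and against that level no fold difference remained. The Or85e call held in 9 of 16 alternative fits and the Or42a call in 6 of 15.

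The other genes that fell were dim. Or65a (1639831_at), a trichoid receptor for cis-vaccenyl acetate, read 27.5 and 23.2 in mutant and 36.0 and 40.5 in control heads (-0.60 ± 0.13, adjusted p = 0.0283). Control replicate 1 was itself under its dim level of 39.8, so no lower bound of the fold is given for Or65a. Or47a (1638902_at), a receptor for acetate esters, read 18.7 and 16.7 in mutant and 22.9 and 28.2 in control heads (adjusted p = 0.0336). Or13a (1627819_at), a receptor for the mushroom alcohol octenol, read 9.6 and 11.7 in mutant and 16.3 and 14.3 in control heads (adjusted p = 0.043). The groups did not overlap in any of these genes, but for Or47a and Or13a all arrays were under the dim level, and no fold is given. The cuticle protein gene Cpr47Ea, which overlaps Or47a in the assembly, rose by 0.45 (adjusted p = 0.0192), and mmd, which neighbours Or13a, had a difference of -0.41 (adjusted p = 0.0402). Among 14 measured neighbours of the 8 receptor genes that passed, 4 passed in mutant against control, beside 10.8% of all tested probe sets. No neighbour of Orco, Or85e, Or42a or Or65a passed in it. The Or65a, Or47a and Or13a calls held in 7, 7 and 5 of 15 alternative fits.

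**Figure D2:**
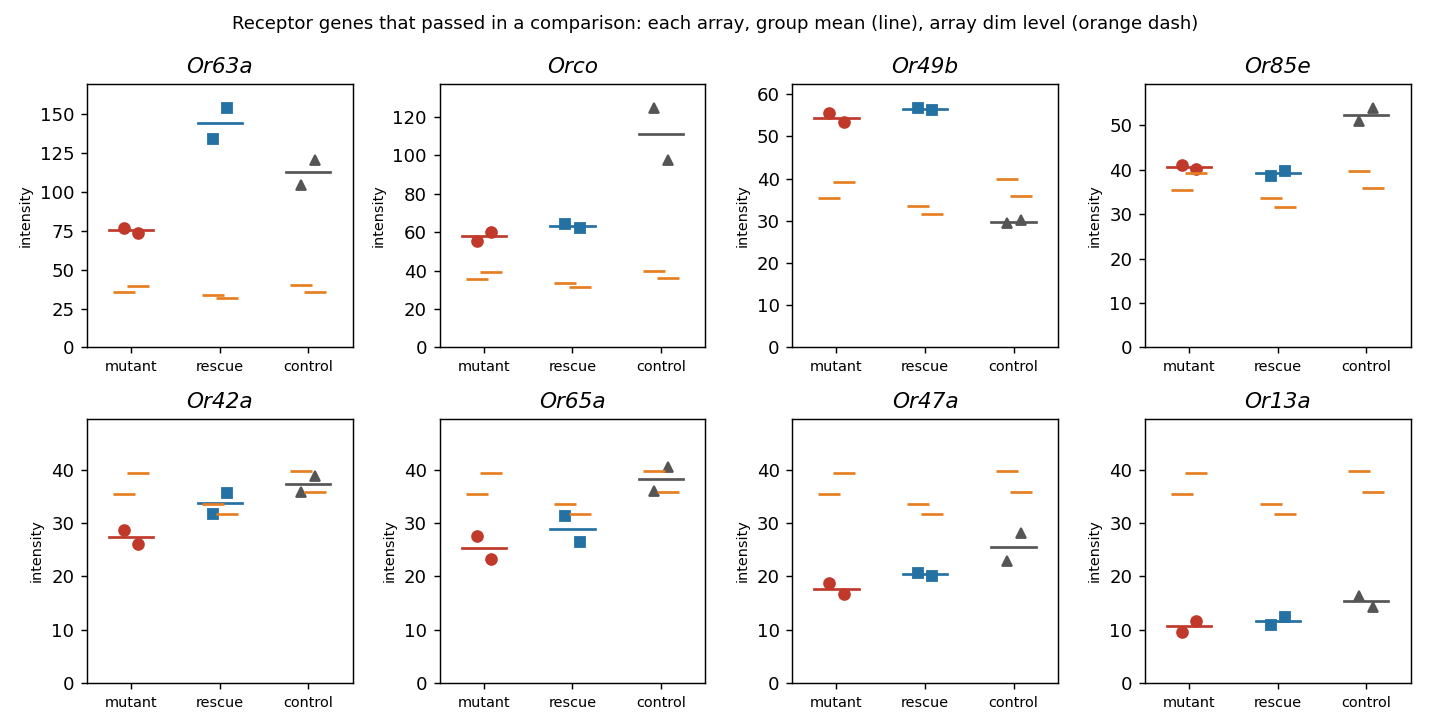
Intensity of the 8 receptor genes that passed in at least 1 comparison, with 1 point per array, the group mean as a line, the dim level of each array as an orange dash, and groups from left to right mutant, rescue and control. Orco, Or63a and Or85e lie above the dim level on all arrays, Or49b only on mutant and rescue arrays, and Or47a and Or13a on none.

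Among the receptors of the maxillary palp, 2 of 7 fell, Or85e and Or42a, and 5 did not pass. The share passing downward was 3.88% of all tested probe sets and 3.1% of those no brighter than the brightest receptor gene. All 7 had a lower mean log2 signal in mutant than in control, 6 of them without overlap of the groups, with a median difference of -0.37. Or71a, a receptor for ethylphenols, read 26.7 and 26.4 in mutant and 31.9 and 31.9 in control heads (adjusted p = 0.0725). Or71a, Or46a, Or59c, Or33c and Or85d were under the dim level on every array, with adjusted p from 0.0725 to 0.923, so only their signs are described and the median gives no size of a change in transcripts. Over all 56 genes, 25 lay without overlap below control and 3 above it, against 30.9% and 23.9% of all tested probe sets.

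Of the 26 basiconic and coeloconic antennal receptors, 1 rose (Or49b), 2 fell (Or47a and Or13a) and 23 did not pass, with a median difference of -0.10. Upward 6.88% of all tested probe sets passed, and downward 3.88%. Or59b, a receptor for acetate esters that lay above the dim level on all arrays, read 41.1 and 46.0 in mutant and 51.6 and 63.4 in control heads (-0.40 ± 0.12, adjusted p = 0.0796). Or22a, a receptor for ethyl esters of fruit, read 38.7 and 34.8 in mutant and 40.6 and 39.2 in control heads (-0.12 ± 0.087, adjusted p = 0.412). Or92a, which detects diacetyl, had a difference of -0.06 ± 0.096 (adjusted p = 0.718).

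Or43b and Or35a, both above the dim level on all arrays, were close to control in the mutant. Or43b read 69.1 and 66.7 in mutant and 62.3 and 71.6 in control heads (0.02 ± 0.097, adjusted p = 0.9). Or35a, the broadly tuned receptor of coeloconic sensilla, read 56.0 and 69.0 in mutant and 61.4 and 60.2 in control heads (0.03 ± 0.11, adjusted p = 0.88). Its other probe sets, at mean intensities of 19.7 and 26.4, had differences of -0.24 and -0.27 (adjusted p = 0.481 and 0.27), so the probe sets of this gene differed in sign without any passing.

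Of the 10 measured trichoid and intermediate receptors, 1 fell (Or65a) and 9 did not pass, with a median of -0.07. Downward, 3.88% of all tested probe sets passed. Or47b, a receptor for fly-derived odours that promote courtship, read 22.4 and 24.4 in mutant and 23.5 and 24.8 in control heads. Or88a, which also responds to fly odours, read 22.4 and 21.7 in mutant and 21.0 and 24.2 in control heads. Or83c, a receptor for farnesol, read 19.6 and 18.7 in mutant and 20.4 and 24.3 in control heads. In these 3 genes the adjusted p was from 0.226 to 0.861 and every array was under the dim level. Or65b and Or43a, the brightest of this list, had differences of -0.18 ± 0.15 and -0.01 ± 0.092 (adjusted p = 0.482 and 0.955); Or65b read 42.9 and 40.1 in mutant and 39.7 and 55.7 in control heads. Or19a, a receptor for citrus odours, shares its probe set with Or19b, so its level was not assigned; that probe set read 44.3 and 48.3 in mutant and 49.3 and 46.5 in control heads.

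Of the 11 measured larval receptors, 1 fell (Or63a) and 10 did not pass, with a median of -0.08, beside 3.88% of all tested probe sets passing downward. Among them Or94a read 46.2 and 42.8 in mutant and 46.7 and 51.5 in control heads (-0.14 ± 0.087, adjusted p = 0.339), above the dim level on every array.

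Tandem copies, which can share probe sequence, had differences of the same sign between mutant and control in the Or65, Or59 and Or94 groups. In the Or65 group they were -0.60 ± 0.13 for Or65a, -0.18 ± 0.15 for Or65b and -0.28 ± 0.091 for Or65c. The first passed, Or65a and Or65c were at or under the dim level in mutant, and differences between copies were not tested. Or59b and Or59c had -0.40 and -0.39, and neither passed. Or94a and Or94b had -0.14 and -0.05. Other neighbouring copies were also below 0 without passing: Or22a and Or22b (-0.12 and -0.17), Or33a, Or33b and Or33c (-0.25, -0.10 and -0.13), and Or85b and Or85c (-0.19 and -0.21). In this comparison 45 of all 56 receptor genes (80.4%) were below 0, so a shared sign did not set tandem copies apart. By chromosome arm, the genes that passed were 3 of 14 on 2R (1 up, 2 down), 2 of 11 on 3L, 2 of 15 on 3R and 1 of 6 on X, all of these down, and 0 of 10 on 2L. Of all tested probe sets 10.8% passed in this comparison. No receptor gene of 2L had an unadjusted p under 0.05 (limma), and 1 of these 10 genes lay above the dim level on all arrays. Differences between arms were not tested.

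The median difference between mutant and control was -0.11 over the 56 genes, -0.03 over all tested probe sets and -0.07 over those no brighter than the brightest receptor gene. After the arrays were quantile normalized once more it was -0.030 over the 56 genes and -0.013 over all tested probe sets. In 45 of 56 genes (80.4%) the difference was below 0, against 57% of all and 68.9% of those no brighter. Control replicate 2 read higher than control replicate 1 in 41 of the 56 genes, 73.2% against 52.9% of all tested probe sets and 57.8% of those no brighter. This array also had the lowest ratio of 5' to 3' actin signal, a measure of RNA integrity: the ratio was 0.205 and 0.335 in mutant, 0.37 and 0.45 in rescue, and 0.306 and 0.138 in control.

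The number of receptor genes that fell varied with the arrays in the fit. It was larger without control replicate 1, which left control replicate 2 alone, and smaller when any other single array was left out. Every such fit left 1 array in a group, so its counts are not given. Shares of all tested probe sets in these fits are not given either. The swings are therefore not read as particular to receptor genes. Leaving out a rescue array did not change any difference between mutant and control, only the spread behind the adjusted p. Or49b rose in each of these fits. With an index of the 5' to 3' ratio as a covariate the number that fell was 7, as in the fit without it. Leaving out control replicate 1 moved the median difference to -0.16, and leaving out control replicate 2 moved it to -0.07.

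**Figure D3:**
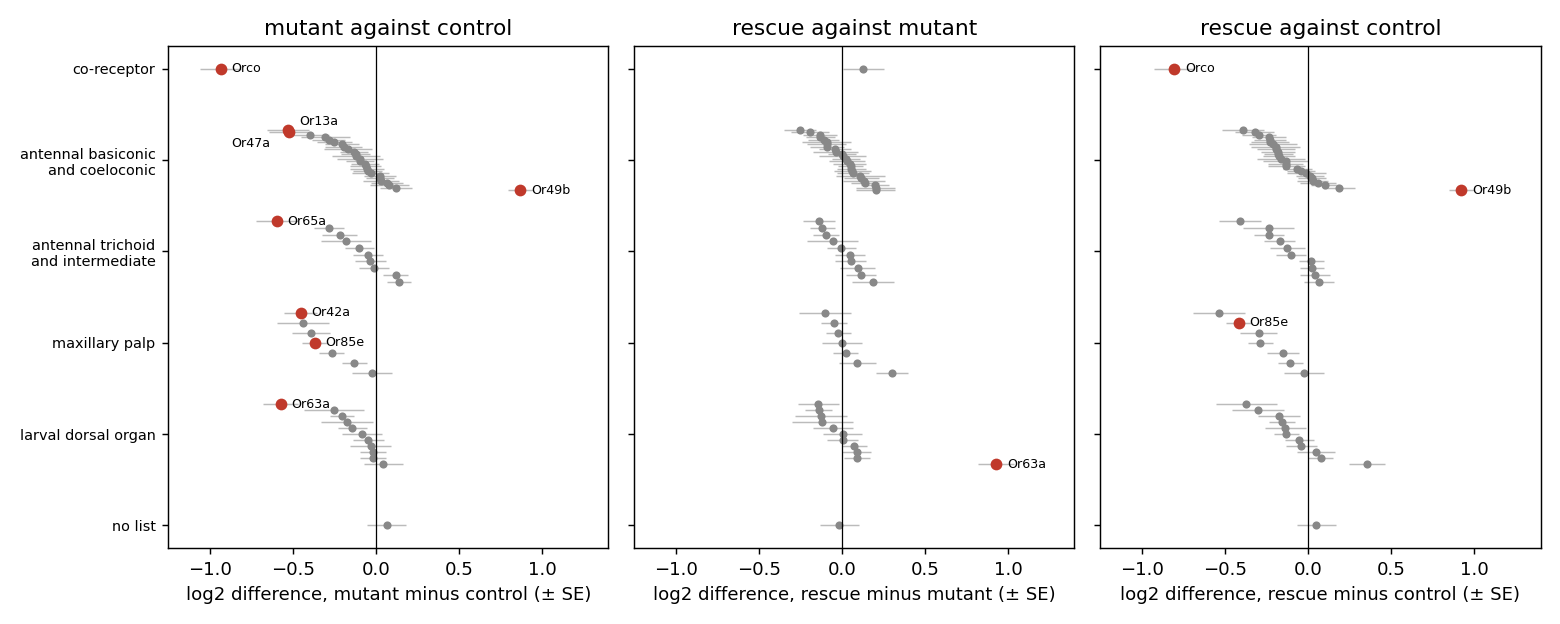
Log2 difference (± SE) of each receptor gene in the 3 comparisons, grouped by the organ from which the receptor is known, with genes past the threshold in red and named. The 7 palp receptors all lie below 0 between mutant and control, though 5 of them are under the dim level on every array, and Or63a stands alone at 0.93 between rescue and mutant.

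Rescue heads were set against mutant heads to find the genes that respond when the microRNA returns to the IPCs. Of the 56 receptor genes, 1 rose, Or63a, and 0 fell (limma; 3 had an unadjusted p under 0.05 in either direction). Of all tested probe sets 1.4% passed, 0.693% upward and 0.709% downward, and of those no brighter than the brightest receptor gene 0.716% passed, 0.385% upward and 0.331% downward. The single receptor is 1.79% of the 56 genes. Without overlap of the groups, 14 genes lay above mutant and 12 below it, against 21.0% and 28.1% of all tested probe sets. Or63a read 133.7 and 154.0 in rescue heads, against 77.0 and 73.8 in mutant heads, a difference of 0.93 ± 0.11 (adjusted p = 0.0108), or 1.9-fold. Both rescue arrays also lay above both control arrays, at a difference of 0.36 ± 0.11 that did not pass (adjusted p = 0.0762). The rise over the mutant did not pass without any 1 of the mutant or rescue arrays (adjusted p from 0.07 to 0.118).

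Orco read 64.1 and 62.3 in rescue heads, against 55.5 and 60.2 in mutant heads (0.13 ± 0.12, adjusted p = 0.735). Or49b read 56.8 and 56.2 in rescue heads, against 55.5 and 53.4 in mutant heads (0.05 ± 0.074, adjusted p = 0.827). Or42a had the next largest rise among the genes that passed in the mutant, at 31.7 and 35.7 in rescue and 28.6 and 26.0 in mutant heads (0.30 ± 0.098, adjusted p = 0.235). The median over the 56 genes was 0.01, against -0.02 over all tested probe sets.

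Against control, the rescue kept 3 of these differences past the threshold. Orco differed by -0.81 ± 0.12 on the log2 scale (adjusted p = 0.00895), and Or85e, at 38.7 and 39.8 in rescue and 50.9 and 54.0 in control heads, by -0.42 ± 0.077 (adjusted p = 0.0173). Or49b was higher by 0.92 ± 0.074 (adjusted p = 7.6e-04), at least 1.49-fold against the dim level. Of all tested probe sets 12.1% passed, 5.25% downward and 6.83% upward, and of those no brighter than the brightest receptor gene 5.9% passed, 3.55% downward and 2.35% upward. Without overlap, 24 genes lay below control and 5 above it, against 35.8% and 23.8% of all tested probe sets. The mutant and the rescue were both set against the same control arrays. The number of falls was larger without control replicate 1 and smaller without either rescue array. Shares of all tested probe sets in those fits are not given. The median difference was -0.13 over the 56 genes, against -0.05 over all tested probe sets and -0.08 over those no brighter, and it was below 0 in 73.2% of the genes, against 70.2% of those no brighter. It was -0.057 in the fit that included the 5' to 3' index, against -0.021 over all tested probe sets. After another quantile normalization it was -0.056, against -0.017 over all tested probe sets. It reached -0.21 when control replicate 1 was left out and -0.069 when control replicate 2 was.

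Other genes of the olfactory organs were read on the same arrays. Of 13 measured signalling partners and receptors of other families, 1 rose (Ir25a) and 1 fell (Os-C) between mutant and control. Of all tested probe sets, 6.88% passed upward and 3.88% downward in this comparison. Ir25a, a co-receptor of the ionotropic receptor family, read 56.2 and 61.4 in mutant, 57.2 and 55.6 in rescue, and 44.6 and 43.7 in control heads. Its difference between mutant and control was 0.41 ± 0.081 (adjusted p = 0.0215). Orco and Ir25a, co-receptors of separate receptor families, thus differed from control in opposite directions. Ir8a and Ir76b, also co-receptors of the ionotropic family, had differences of 0.01 and 0.22 and did not pass (limma, adjusted p = 0.987 and 0.202). The Ir25a call held in 9 of 16 alternative fits.

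The antennal secreted protein gene Os-C read 26.1 and 32.2 in mutant, 123.3 and 119.4 in rescue, and 61.9 and 82.7 in control heads. Both mutant arrays were under the dim level. Against that level, mutant was at least 1.92-fold lower than control (adjusted p = 0.00332), and rescue was at least 3.25-fold higher than mutant (adjusted p = 0.00224). The binding protein gene lush, needed for the response to cis-vaccenyl acetate, read 103.2 and 111.6 in rescue and 43.4 and 37.5 in mutant heads (1.41 ± 0.10, adjusted p = 0.00201), with mutant replicate 2 under the dim level. Between rescue and mutant, 2 of these 13 genes rose (Os-C and lush). Between rescue and control 4 rose, with a10, a further antennal protein gene, at 0.79 ± 0.12 (adjusted p = 0.00863). Of all tested probe sets, 0.693% passed upward between rescue and mutant and 6.83% between rescue and control.

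Snmp1, a membrane protein of pheromone-sensing neurons, read 123.6 and 123.7 in mutant, 108.7 and 100.9 in rescue, and 107.4 and 104.6 in control heads, and passed in no comparison (adjusted p from 0.125 to 0.9). Gr21a and Gr63a, which together form the carbon dioxide receptor, and Ir8a were under the dim level on all arrays. Neither Gr21a (0.25, adjusted p = 0.104) nor Gr63a (-0.20, adjusted p = 0.161) nor Ir8a (0.01, adjusted p = 0.987) passed between mutant and control.

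Of 13 measured transcription factor genes of olfactory neurons, 1 fell in the mutant against control, beside 3.88% of all tested probe sets. This was Eip93F, an ecdysone-induced factor. It read 401.3 and 340.1 in mutant and 522.5 and 540.9 in control heads (-0.53 ± 0.11, adjusted p = 0.0233), and the call held in 9 of 16 alternative fits. In rescue against control 2 fell, beside 5.25% of all tested probe sets. They were Eip93F (-0.62, adjusted p = 0.0134) and fru, the courtship regulator (-0.75, adjusted p = 0.0089). Both calls were lost without either rescue array and with the 5' to 3' covariate. With the mean of a gene's probe sets Eip93F had -0.28 (adjusted p = 0.254) and fru -0.20 (adjusted p = 0.136). The POU factor gene acj6, which sets receptor choice in antennal and palp neurons, read 79.3 and 62.2 in mutant, 76.7 and 75.9 in rescue, and 90.0 and 122.5 in control heads. Its difference between mutant and control was -0.58 ± 0.17 (adjusted p = 0.0758). Without control replicate 1 it was -0.80 (adjusted p = 0.0118), without control replicate 2 it was -0.36 (adjusted p = 0.197), and with the 5' to 3' covariate -0.41 (adjusted p = 0.0228). Another POU factor gene of these neurons, pdm3, had a difference of -0.07 (adjusted p = 0.683). These factors act in many other neurons of the head as well.

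**Figure D4:**
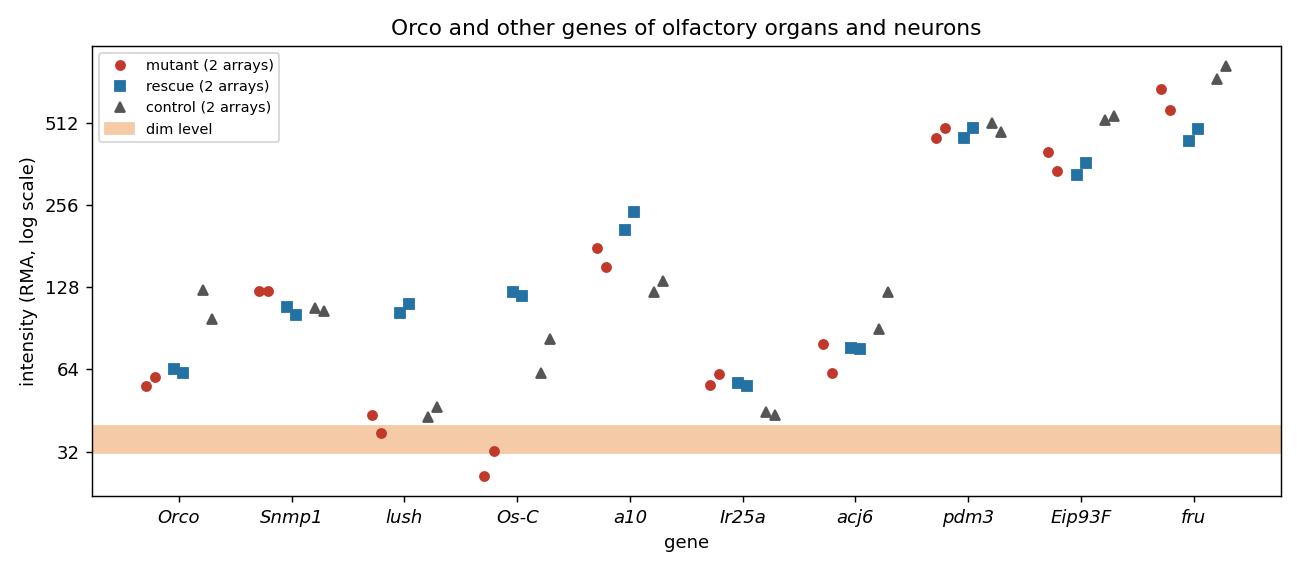
Intensity (RMA, log scale) of Orco and 9 other genes of olfactory organs and neurons on the 6 arrays, with mutant, rescue and control from left to right for each gene and the dim level as an orange band. Orco is lower in mutant and rescue than in control, while lush and Os-C are highest in rescue and Snmp1 passed in no comparison.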

How the data were processed

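The deposited table holds 1 intensity per probe set and array, summarised by the authors with RMA, per the submitters' processing notes (version not given in the sources used here), on a linear scale from 5.6 to 16778.3. Per the labels' protocols, biotin-labelled cRNA was made from Trizol-extracted RNA. The table has no detection call, so the dim level served as a guide, and RMA compresses differences of dim probe sets. After 183 control probe sets were left out, 18769 remained, and limma 3.58.1 (R 4.3.3) compared the groups (log2 intensity, all 6 arrays, two-sided), with Benjamini-Hochberg adjustment over all of them in each comparison and a threshold of 0.05. Residual degrees of freedom were 3. The procedure was run on simulated data with independent noise on each array. That simulation does not cover differences in RNA integrity between arrays. Precision is limited by 2 arrays per group.

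Gene names came from the platform annotation. Gene order and chromosome arms came from the RefSeq gene table of assembly Release 6 plus ISO1 MT, in which all 56 genes were found. A lower bound of a fold replaced each array of a group under the dim level by that level.

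The members, lists and tests were chosen with earlier results of these data known. Named were all members past the threshold, the 10 brightest, 15 well known receptors, the passing genes of the 2 other lists, 7 set genes of those lists, and probe sets that differed in sign from the brightest. Markers and neighbours are named beside results they touch.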

Additional observations from a re-analysis of the deposited data

How the results depend on the processing

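Of the 12 calls of receptor genes, 2 held in every alternative fit, those of Or49b in mutant and rescue against control. No named gene changed direction with a call, among 105 gene results. Receptor genes lower in mutant than in control numbered 7, and 2 with the replicate block or with only the 2 groups compared, and 4 with array weights. They numbered 3 after a filter on dim probe sets, which kept 14 of the 56 genes. That filter removed Or42a, Or65a, Or47a and Or13a, and the calls of Orco, Or63a and Or85e held. Leaving out 1 array each gave from 0 to 13 lower genes in that comparison, from 0 to 16 in rescue against control, and from 0 to 1 higher in rescue against mutant. In rescue against control, 2 were lower, and 4 with the mean of a gene's probe sets. The median differences with 1 array left out ran from -0.16 to -0.07 for mutant against control and from -0.21 to -0.069 for rescue against control. After quantile normalization once more they were -0.030 and -0.056, and the second was -0.057 once a 5' to 3' index entered as a covariate. The matching medians over all tested probe sets were -0.013, -0.017 and -0.021. The causes were not tested. Genes above the dim level numbered 7, and 40 against the median of the control probe sets, 0 against ovary and gland genes, 19 when above on at least 1 array and 14 by the mean.

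Deviations of same-numbered arrays correlated at -0.26 between mutant and control, 0.00 between rescue and mutant and -0.19 between rescue and control. These values do not decide whether same-numbered samples were paired, because differences in RNA integrity between arrays can also enter them. The replicate block was kept as a check beside the main fit. It lowered the number of falls in mutant against control and changed no count in the other comparisons. With the control numbers crossed, a pairing added after seeing the data, 7 genes were lower and 1 higher in mutant against control, and 5 were lower in rescue against control.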
